A study of Mus musculus with 6 samples.

Results

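Alternative activation genes are described here in mouse macrophage cultures given RIP1i or its solvent. The 9 genes, of 52459 in the table, were Ccl17, Ccl22, Ccl24, Chil3, Retnla, Arg1, Il4ra, Mgl2 and Tgm2, each matched by its exact symbol, and every one was found in a single row. Of these, 6 had enough reads for a test and 3 (Ccl24, Arg1 and Retnla) did not. RNA was sequenced from 3 DMSO and 3 RIP1i libraries of C57BL/6 bone marrow derived macrophages. Every culture, control or treated, had been grown with GM-CSF, and DMSO or RIP1i was added at day 7 and left overnight. The labels name no RIP1i compound, dose, cell sort, or sex or age of the mice. Nothing in them says that the replicates were separate cultures or animals, so the p-values cover no more than the differences among these 6 libraries, which could be technical.

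Alternative activation is the macrophage state best known from IL-4 and IL-13. Both cytokines bind receptors that contain the IL-4 receptor alpha chain and activate the transcription factor STAT6. CCL17 and CCL22 are chemokines that call T cells bearing the receptor CCR4, and CCL24 calls eosinophils through CCR3. Chil3 (Ym1) and Retnla (Fizz1) encode secreted proteins, Arg1 encodes the arginase that competes with nitric oxide synthase for arginine, Mgl2 encodes a galactose-type lectin receptor, and Tgm2 encodes a protein-crosslinking transglutaminase. GM-CSF, the growth factor of these cultures, is itself known to induce CCL17 through the transcription factor IRF4.

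The sequences before the start sites of 4 members are shown because these genes stood at very different levels and differ in the letters that STAT factors prefer. Positions come from the RefSeq promoter table (build GRCm38.p6, the mm10 assembly), which held 6 of the 9 members. The table had no entry for Ccl24, Arg1 or Tgm2. Motifs were searched on both strands in the 250 bases before each RefSeq start. Printed stretches stop where the GENCODE gene begins, if that is earlier. All are written 5′ to 3′ on the strand of the gene, in lower case, with matches to the STAT6-type motif TTCNNNNGAA or the STAT-type motif TTCNNNGAA in capitals.

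Ccl17, plus strand, chr8:94810203-94810452: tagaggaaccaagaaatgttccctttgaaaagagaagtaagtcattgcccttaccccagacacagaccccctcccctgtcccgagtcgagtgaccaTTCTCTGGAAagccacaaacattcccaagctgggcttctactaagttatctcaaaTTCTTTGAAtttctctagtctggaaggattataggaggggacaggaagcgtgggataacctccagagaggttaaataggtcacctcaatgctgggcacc
Ccl22, plus strand, chr8:94745434-94745589: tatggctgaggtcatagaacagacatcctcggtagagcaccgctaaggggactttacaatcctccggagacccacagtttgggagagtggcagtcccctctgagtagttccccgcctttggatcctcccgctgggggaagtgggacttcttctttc
Chil3, minus strand, chr3:106167565-106167814: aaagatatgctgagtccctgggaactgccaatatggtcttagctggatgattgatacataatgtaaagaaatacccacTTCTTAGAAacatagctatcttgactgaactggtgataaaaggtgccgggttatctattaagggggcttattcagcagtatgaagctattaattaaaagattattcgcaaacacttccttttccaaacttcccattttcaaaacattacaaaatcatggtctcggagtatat
Retnla, plus strand, chr16:48842359-48842550: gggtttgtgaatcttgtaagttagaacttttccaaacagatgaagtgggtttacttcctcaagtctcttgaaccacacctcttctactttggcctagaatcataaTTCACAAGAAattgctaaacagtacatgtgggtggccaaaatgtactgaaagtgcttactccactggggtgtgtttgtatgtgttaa

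Ccl17 had both motifs, TTCTCTGGAA from 154 to 145 bases and TTCTTTGAA from 99 to 91 bases before its start. Retnla had the STAT6-type motif as TTCACAAGAA, 145 to 136 bases before its start, and Chil3 had the STAT-type motif as TTCTTAGAA, 172 to 164 bases before its start. The windows of Ccl22, Il4ra and Mgl2 had neither. The last 58 bases of the Retnla window lay inside its GENCODE gene, as did 94 in Ccl22, 151 in Il4ra and 28 in Mgl2. For Retnla, the RefSeq sequence just after the start was not found in its GENCODE transcripts. Of 32817 such windows of the table, 5.9% held the STAT6-type and 7.0% the STAT-type motif. Ccl17 and Retnla, the 2 members with the STAT6-type letters, were the highest and the lowest of the members in these libraries, as given below. Shorter or looser motifs were also searched. The NF-kB-type motif GGGNNNNNCC, present in 45.8% of windows, was found in Ccl22, Chil3 and Mgl2. The PU.1 core GAGGAA (23.3% of windows) was found in Ccl17, Retnla and Mgl2, and the C/EBP-type motif TTGCNNAA (9.6%) in Retnla. The AP-1-type motif TGANTCA (6.8%) was found in none of the 6. No match overlapped another, and a match of letters is not a binding site.

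The labelled cell type was checked against its markers. All 10 macrophage markers were detected in every library, with Lyz2, Cd68 and Csf1r high. Their summed level was 51130 to 59033 CPM in DMSO and 44437 to 53965 CPM in RIP1i, where CPM are library-scaled (TMM) counts relative to the library total. Library totals ran from 40264902 to 44862310 counts. Of the dendritic cell markers 9 of 10 could be tested, some with few reads, such as Flt3 at 21 to 55 counts in a library. Only Itgax was high, at 255 FPKM in DMSO and 277 FPKM in RIP1i. GM-CSF cultures are known to hold dendritic cells. Of the T cell genes, Cd3e had 0 or 1 counts in each library and Cd3g 1 to 7. Other genes of that list had more reads, with Cd4 at 50 to 105 counts, Lck at 47 to 66 and Thy1 at 73 to 115. In bulk RNA, fewer cells of a type and less RNA per cell cannot be told apart.

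The members split into 6 strongly expressed genes and 3 that were almost silent. Levels between genes are given in FPKM, the deposited unit per gene length. Ccl17 was the highest with a mean of 906 FPKM over the 6 libraries, above 99.8% of the tested genes. Chil3 followed with 827 FPKM. Their libraries overlapped, and Ccl17 was above Chil3 in 4 of 6. Mgl2 (174 FPKM) and Tgm2 (163 FPKM) came next, and they also overlapped each other, with Mgl2 above Tgm2 in only 2 of 6 libraries. Il4ra stood at 84.6 FPKM and Ccl22 at 20.6 FPKM, each below the gene before it in 6 of 6 libraries with no overlap. Ccl24, Arg1 and Retnla followed at 0.070, 0.048 and 0.013 FPKM, and these 3 overlapped one another. Ccl22 was thus 295 times as high as Ccl24 in mean FPKM.

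**Figure D1:**
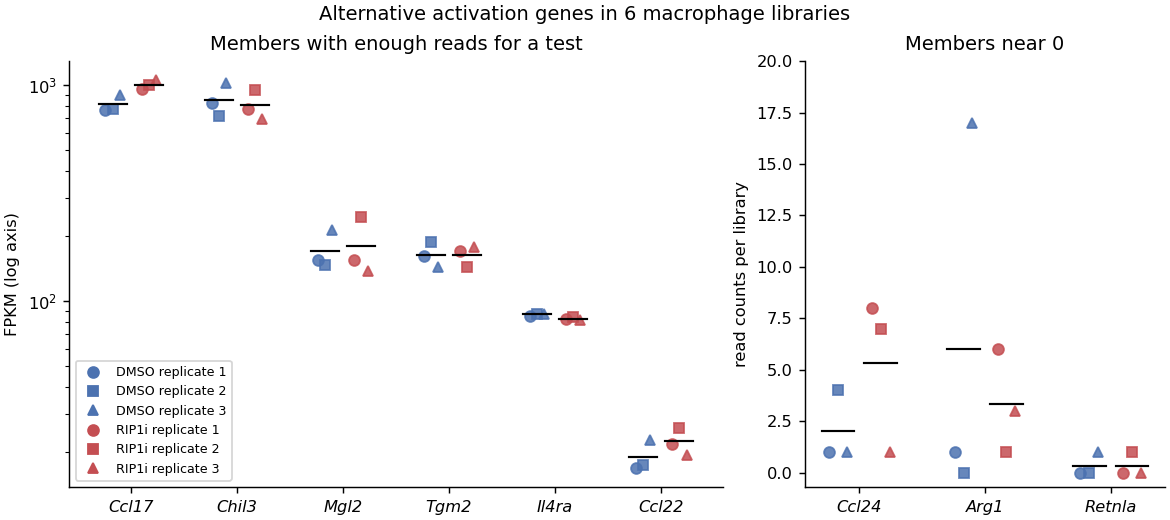
Levels of the 9 members in each library, as FPKM on a log axis for the 6 tested genes (left) and as read counts on a linear axis for the 3 others (right). Points are libraries (blue DMSO, red RIP1i, shape by replicate) and black bars are group means. Ccl17 is the only one of the 6 whose RIP1i libraries all lie above the DMSO libraries, and Arg1 reaches 17 counts in DMSO replicate 3 only.

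RIP1i and DMSO libraries did not differ in any member beyond the adjusted threshold. In the quasi-likelihood test of edgeR, Benjamini-Hochberg adjusted over all genes, 0 of 6 tested members and 0 of 14857 tested genes (0%) had an adjusted p under 0.05. The smallest adjusted p of a member was 0.777. At an unadjusted p under 0.05 there was 1 member of 6, Ccl17, beside 923 genes (6.21%) overall. DESeq2 called 2 genes and limma-voom 0 over the same table, neither call being a member, with 571 and 910 genes at an unadjusted p under 0.05. The DMSO and RIP1i libraries did not overlap for 2 members, Ccl17 and Il4ra, against 13.5% of all tested genes. With the 3 silent members left out by the filter, these counts describe the 6 expressed members only.

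**Figure D2:**
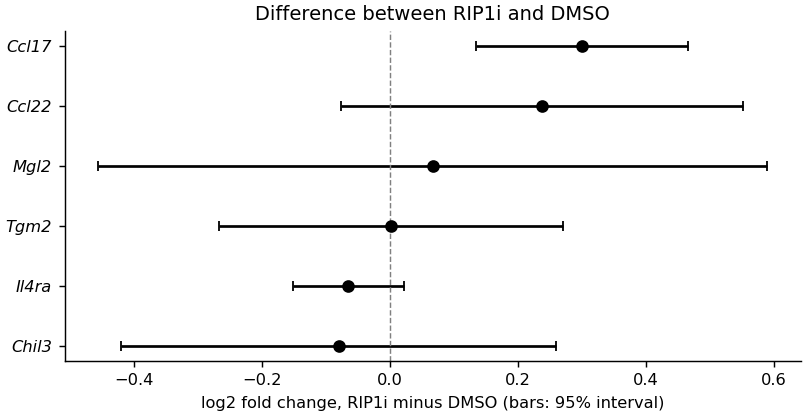
Log2 fold change (RIP1i minus DMSO, horizontal axis) of the 6 tested members in the edgeR fit, with 95% confidence intervals as bars. Ccl17 at 0.30 is the 1 member whose interval lies off 0, and the intervals of Mgl2 and Chil3 are the widest.

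Ccl17 (ENSMUSG00000031780, chromosome 8, 94810453 to 94812036, plus strand, 3 exons) stood at 765, 775 and 900 FPKM in DMSO replicates 1 to 3. In RIP1i replicates 1 to 3 it stood at 952, 996 and 1047 FPKM. Each RIP1i library was above each DMSO library, and DMSO replicate 3 was the control nearest to the treated libraries. The group means were 813 ± 75.1 and 998 ± 47.3 FPKM (SD, n = 3). The log2 fold change was 0.30 with a 95% interval from 0.13 to 0.47, or 1.23-fold (1.1 to 1.38). By unadjusted p it ranked 39 of 14857 genes (edgeR adjusted p = 0.777), and the exact 2-sided permutation p of its CPM was 0.1, the smallest possible. Leaving out any 1 library kept the fitted value between 0.25 and 0.37, with edgeR adjusted p from 0.692 to 0.994. Ccl17 had already been singled out by an earlier look at these libraries, so its separation is no independent evidence.

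Ccl22 (ENSMUSG00000031779, chromosome 8, 94745590 to 94751699, plus strand, 4 exons) is the other CCR4 ligand of the same cluster. It stood at 16.9, 17.3 and 22.7 FPKM in DMSO and at 21.8, 25.8 and 19.4 FPKM in RIP1i. The groups overlapped, since DMSO replicate 3 was above RIP1i replicates 1 and 3. The log2 fold change was 0.24 (95% interval -0.077 to 0.55, edgeR adjusted p = 0.795). It was 0.11 without RIP1i replicate 2, its highest library, 0.15 without DMSO replicate 1 and 0.38 without DMSO replicate 3. Between both genes lies Cx3cl1, the fractalkine gene, which is 20310 bases from Ccl22 and 28026 bases from Ccl17. Cx3cl1 had only 110 to 188 counts in a library.

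The ratio of Ccl17 to Ccl22 within a library does not depend on library scaling. In FPKM it was 45.3, 44.7 and 39.6 in DMSO and 43.7, 38.6 and 54.1 in RIP1i. The lowest and the highest ratio were both RIP1i libraries, so the groups overlapped widely. The log2 difference of 0.061 turned to -0.071 without RIP1i replicate 3 and to -8.9e-05 without DMSO replicate 3. The means were 43.2 ± 3.12 and 45.5 ± 7.90 (SD, n = 3, exact 2-sided permutation p = 0.9, where 0.1 is the smallest p that 3 against 3 allow). The ratio of Chil3 to Ccl17 was 1.07, 0.926 and 1.13 in DMSO and 0.811, 0.949 and 0.662 in RIP1i. Its means were 1.04 ± 0.10 and 0.807 ± 0.14 (SD, n = 3, exact 2-sided permutation p = 0.2), and only RIP1i replicate 2 lay above a control, DMSO replicate 2.

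Ccl24 (chromosome 5, 135569937 to 135573049, minus strand), the eosinophil chemokine, had 1, 4 and 1 counts in DMSO and 8, 7 and 1 in RIP1i. The group sums were 6 counts (95% Poisson interval 2.20 to 13.1) and 16 counts (9.15 to 26.0), intervals that overlap and cover counting error only. The exact 2-sided permutation p was 0.2 (n = 3 per group), where 0.1 is the smallest that 3 against 3 allow. This test cannot reach a p under 0.05 at any depth, so it decides nothing about Ccl24. Its neighbour and relative Ccl26 was at 0 in all libraries.

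The secreted proteins stood at opposite ends. Chil3 (ENSMUSG00000040809, chromosome 3, 106147554 to 106167564, minus strand, 11 exons) was at 819, 718 and 1015 FPKM in DMSO and 772, 946 and 693 FPKM in RIP1i. Its highest 2 libraries came from different groups, DMSO replicate 3 and RIP1i replicate 2. The fitted log2 fold change was -0.080 (-0.42 to 0.26, edgeR adjusted p = 0.938), and it changed sign to 0.060 without DMSO replicate 3 and to 0.0086 without RIP1i replicate 3. Chil4, a near relative next to Chil3, had 15 to 27 counts in a library against 47181 to 74709 for Chil3. How reads that match both genes were counted is not given in the sources used here, so small counts of Chil4 may belong to Chil3. Chil1, a more distant relative, had 5 to 135 counts, with a log2 fold change of 0.69 (-1.35 to 2.73, edgeR adjusted p = 0.910), and Chia1, the acidic chitinase gene, had 0 to 2 counts.

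Retnla (chromosome 16, 48842551 to 48844461, plus strand) had 1 count in DMSO replicate 3, 1 in RIP1i replicate 2 and 0 in the other 4 libraries. Each group's single count has a 95% Poisson interval up to 5.57 counts, or 0.043 CPM in DMSO and 0.045 CPM in RIP1i, and no fold is given at this floor. Its relatives also had few reads, and none could be tested. Retnlb had 0 counts throughout and Retn, the resistin gene, had 0 to 4. Retnlg, which is known from neutrophils, was found in every library, with 1 to 13 counts.

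Arg1 (chromosome 10, 24915221 to 24927484, minus strand) had 1, 0 and 17 counts in DMSO and 6, 1 and 3 in RIP1i. A single library, DMSO replicate 3, held 17 of the 18 DMSO counts. The groups overlapped (exact 2-sided permutation p = 1, n = 3 per group), and the sums of 18 and 10 counts had 95% Poisson intervals from 10.7 to 28.4 and from 4.80 to 18.4. Other genes of arginine use were expressed. Arg2, the mitochondrial arginase gene, was at 20.3 FPKM in DMSO and 20.9 FPKM in RIP1i, and the arginine transporter gene Slc7a2 was at 57.2 and 60.2 FPKM. Of the 11 genes of arginine and polyamine metabolism, all tested, 0 were called and 9 were fitted higher (8 with upper-quartile scaling). Over all genes tested, 51% were fitted higher (46.3% with upper-quartile scaling). The median log2 fold change of the 11 was 0.051, against 0.0025 over all genes tested. The smallest p-values of the 11 belonged to Azin1 and Ass1 (edgeR adjusted p = 0.777 each). Azin1, an inhibitor of the ornithine decarboxylase antizyme, was at 0.16 ± 0.051 (SE), and Ass1, argininosuccinate synthase, at 0.16 ± 0.057. They were the 2 of 11 with an unadjusted p under 0.05, against 6.21% of all genes tested. The arginine transporter gene Slc7a1 and the spermine synthase gene Sms came next, at 0.23 ± 0.14 and 0.16 ± 0.13.

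Tgm2 (ENSMUSG00000037820, chromosome 2, 158116402 to 158146436, minus strand, 14 exons) was at 160, 187 and 144 FPKM in DMSO and 170, 143 and 177 FPKM in RIP1i. It was lowest in DMSO replicate 3 and RIP1i replicate 2, the libraries where Chil3 was highest. The group means were 163 ± 21.7 and 163 ± 18.0 FPKM (SD, n = 3), with a log2 fold change of 0.00088 (-0.27 to 0.27, edgeR adjusted p = 0.998), so its interval lies within 1.21-fold either way. The sign of this value changes with the scaling, and it was negative without DMSO replicate 1, DMSO replicate 3, RIP1i replicate 1 or RIP1i replicate 3, at -0.023, -0.092, -0.038 and -0.070. Of its relatives, Tgm1 had 170 to 245 counts, with a log2 fold change of 0.19 (-0.085 to 0.46, edgeR adjusted p = 0.811), and Tgm3 had 0 or 1. Rprd1b, on the opposite strand, shares 370 exonic bases with Tgm2 in GENCODE and had 958 to 1140 counts against 27633 to 34645 for Tgm2. Strand use in counting is not given in the sources used here.

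Il4ra (ENSMUSG00000030748, chromosome 7, 125552120 to 125579474, plus strand, 12 exons), the receptor chain for IL-4 and IL-13, varied least. It was at 85.3, 87.2 and 87.1 FPKM in DMSO and 81.9, 84.4 and 81.4 FPKM in RIP1i, so that every RIP1i library was below every DMSO library. The log2 fold change was only -0.065 (-0.15 to 0.021, edgeR adjusted p = 0.795), or 0.96-fold. The coefficient of variation of its CPM was 1.04% in DMSO and 1.4% in RIP1i, against 16.7% and 14.0% for Ccl22 and 20.8% and 31.5% for Mgl2. The 95% interval of its fold change ran from 0.900 to 1.015.

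Mgl2 (ENSMUSG00000040950, chromosome 11, 70130329 to 70137550, plus strand, 10 exons) varied most of the tested members. It was at 154, 146 and 212 FPKM in DMSO and 154, 244 and 137 FPKM in RIP1i, with the same pair of high libraries as Chil3. The log2 fold change of 0.067 (-0.46 to 0.59, edgeR adjusted p = 0.969) became 0.25 without DMSO replicate 3. It turned negative when DMSO replicate 1 (-0.011), DMSO replicate 2 (-0.039) or RIP1i replicate 2 (-0.23) was left out. Its neighbour Clec10a (Mgl1), which encodes the related lectin, was at 13.6, 13.4 and 16.8 FPKM in DMSO and 12.4, 15.2 and 11.04 FPKM in RIP1i. It was highest in DMSO replicate 3 and, within its group, in RIP1i replicate 2. Near-identical stretches of both genes may share reads.

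Variation between libraries of the same group was therefore larger than the difference between groups for Chil3, Mgl2 and Tgm2. Over the 6 libraries, log2 CPM of Chil3 and Tgm2 went in opposite directions (Pearson r = -0.97, Spearman rho = -0.89, exact permutation p = 0.00556 and 0.0333). Chil3 and Mgl2 went together (r = 0.91, rho = 0.89, exact permutation p = 0.0194 and 0.0333), and Mgl2 and Tgm2 apart (r = -0.92, rho = -0.89, exact permutation p = 0.00972 and 0.0333). These are 3 of 15 pairs, and with Benjamini-Hochberg adjustment over the 15 none passed, with adjusted p of 0.0729, 0.0972 and 0.0729 for r and 0.167 for each rho. Without DMSO replicate 3 and RIP1i replicate 2, the libraries farthest from the median, r was -0.90, 0.90 and -0.67, over 4 libraries. Ccl17 and Ccl22 had r = 0.69 and rho = 0.60 (exact permutation p = 0.138 and 0.242, adjusted p = 0.295 and 0.518). That relation rested on DMSO replicates 1 and 2, since r was -0.37 without them. The pairs were computed after the library values had been seen.

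**Figure D3:**
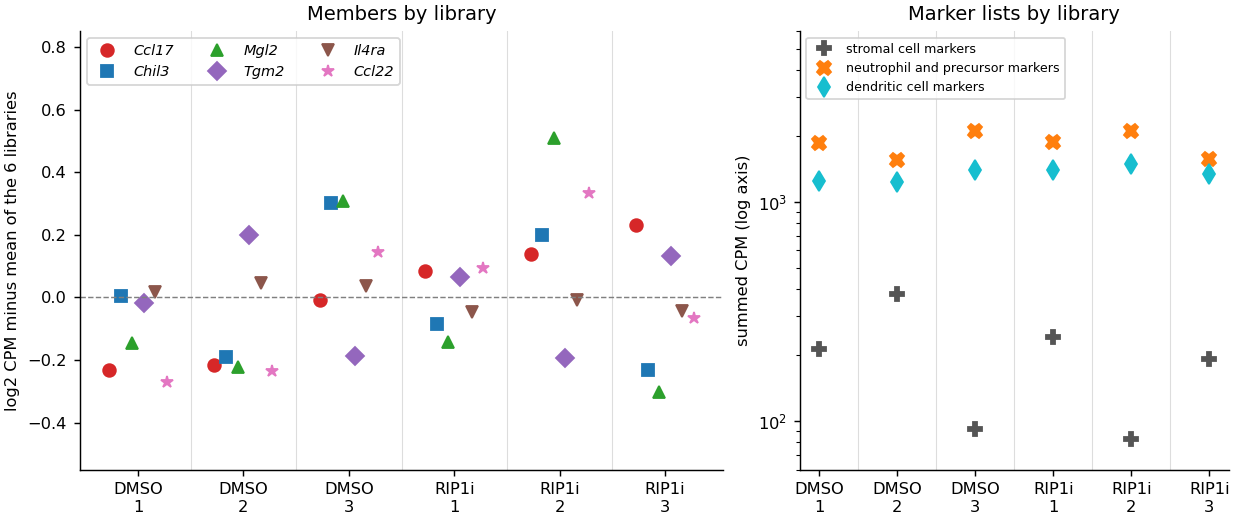
Left, log2 CPM of each tested member minus its mean over the 6 libraries, by library. Right, summed CPM of 3 marker lists on a log axis, mostly Itgax in the dendritic cell list and Mmp8 in the neutrophil list. DMSO replicate 3 and RIP1i replicate 2 are high in Chil3 and Mgl2, low in Tgm2, and lowest in stromal markers, at 92.0 and 82.6 CPM.

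Sums of the stromal, neutrophil, dendritic cell and macrophage marker lists moved with this pattern. Those of the mast cell, T cell and mitochondrial lists did not. The 11 stromal markers, such as collagen genes and Dcn, summed to 213, 380 and 92.0 CPM in DMSO and 242, 82.6 and 192 CPM in RIP1i, and all 11 were detected in every library. The libraries lowest in stromal markers were those lowest in Tgm2, a gene that fibroblasts also express, and highest in Chil3 and Mgl2. The 11 neutrophil and precursor markers, all detected, summed to 1855, 1557 and 2112 CPM in DMSO and 1871, 2110 and 1572 CPM in RIP1i, highest in the same 2 libraries. Most of this sum was Mmp8, at 52511 to 66086 counts in a library, but Mmp8 varied little, from 538 to 604 FPKM. S100a9 was at 489 FPKM in DMSO replicate 3 and 506 FPKM in RIP1i replicate 2, and at 167 to 362 FPKM elsewhere. Ngp was at 80.3 and 81.9 FPKM in these 2 libraries and at 21.7 to 63.8 FPKM elsewhere. S100a8, Ltf, Camp, Mpo and Prtn3 were also highest in these 2 libraries, while Ly6g, Elane and Csf3r were not highest in both. Dendritic cell markers, all 10 detected, summed to 1235 to 1394 CPM in DMSO and 1341 to 1486 CPM in RIP1i. The sum was highest in RIP1i replicate 2 (1486 CPM) and DMSO replicate 3 (1394 CPM), the latter just above RIP1i replicate 1 (1392 CPM). Itgax, with 47149 to 59589 counts in a library, made up most of it. Flt3 had 21 to 55 and Xcr1 3 to 9 counts, but Cd209a had 182 to 785 and Fscn1 434 to 645. Cd209a was at 7.79 FPKM in DMSO replicate 3, 11.81 FPKM in RIP1i replicate 2 and 2.85 to 4.26 FPKM elsewhere. Itgax, Ccr7, Fscn1 and Dpp4 were also highest in these 2 libraries, while Zbtb46, Flt3, Batf3, Clec9a and Xcr1 were not highest in both. The macrophage markers, mostly Lyz2 reads, were lowest in the same 2 libraries. They were at 44437 CPM in RIP1i replicate 2 and 51130 CPM in DMSO replicate 3, the latter just below RIP1i replicate 1 at 51236 CPM. Reads of mast cell, basophil and eosinophil markers were mostly from Kit (6481 to 8261 counts in a library) and Siglecf (2519 to 2959), with Mcpt8 at 12 to 69. These markers summed to 279, 243 and 265 CPM in DMSO and 255, 276 and 253 CPM in RIP1i, with Mcpt4 and Tpsab1 at 0 in all libraries. Those of T and innate lymphoid cells summed to 252, 237 and 247 CPM in DMSO and 283, 263 and 321 CPM in RIP1i. Most of it was Il7r (74.5 ± 2.35 and 87.9 ± 8.67 FPKM, SD, n = 3, in DMSO and RIP1i). Cd4 had 50 to 105 counts in a library, while Cd3d and Cd8a had at most 2 counts. The 13 mitochondrially encoded transcripts summed to 6087, 4137 and 4916 CPM in DMSO and 4908, 4161 and 5448 CPM in RIP1i. Most of this was mt-Co1, at 130188 to 209218 counts in a library. Some had few reads, such as mt-Co2 at 15 to 25 counts and mt-Nd3 at 14 to 36. Of the genes with the smallest p of each of these lists, Il7r had a log2 fold change of 0.24 ± 0.074 (SE), Csf3r -0.20 ± 0.070, Fcgr1 -0.27 ± 0.12, Itgax 0.12 ± 0.063, mt-Nd3 0.51 ± 0.28, Lum -1.15 ± 0.73 and Mcpt8 0.45 ± 0.60, and none was called. The part of these cells in the levels of the members was not tested. Without DMSO replicate 3 and RIP1i replicate 2, an alternative chosen after the values were seen, the log2 fold changes were 0.38 ± 0.060 (SE) for Ccl17, 0.27 ± 0.067 for Ccl22 and -0.036 ± 0.065 for Mgl2, each with an edgeR adjusted p of at least 0.727.

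Of the pathway that leads from IL-4 to the members, 3 of 22 genes had too few reads for a test. These were the ligand genes Il4 (1 to 10 counts in a library) and Il13 (2 to 7), and Il13ra2, which encodes the decoy receptor for IL-13 (1 to 3). Stat6, the transcription factor of the pathway, was at 66.9 FPKM in DMSO and 66.5 FPKM in RIP1i, with a log2 fold change of -0.0043 ± 0.055 (SE). Of the 19 genes tested 0 were called, with 9 fitted higher and 10 lower, or 8 and 11 with 2 other scalings (median log2 fold change -0.0043, against 0.0025 over all genes tested). Over all genes tested, 51% were fitted higher (48.6% and 46.3% with the other scalings). Il13ra1, the partner of Il4ra in the type II receptor, was at 23.5, 21.2 and 24.8 FPKM in DMSO and 25.0, 27.9 and 25.7 FPKM in RIP1i. Its groups did not overlap, as for 13.5% of all genes tested. Its log2 fold change was 0.18 ± 0.066 (edgeR adjusted p = 0.777). Irf4, which is known to drive Ccl17 downstream of GM-CSF, was at 21.6, 18.8 and 25.1 FPKM in DMSO and 23.7, 29.5 and 25.1 FPKM in RIP1i. The Irf4 groups overlapped, with RIP1i replicate 1 below DMSO replicate 3, and its log2 fold change was 0.26 (-0.0042 to 0.52, edgeR adjusted p = 0.777). Il2rg, the common gamma chain of the type I receptor, had a log2 fold change of -0.098 (-0.22 to 0.021, edgeR adjusted p = 0.786). Kdm6b, the histone demethylase placed upstream of Irf4, was low at 0.620 and 0.537 FPKM.

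**Figure D4:**
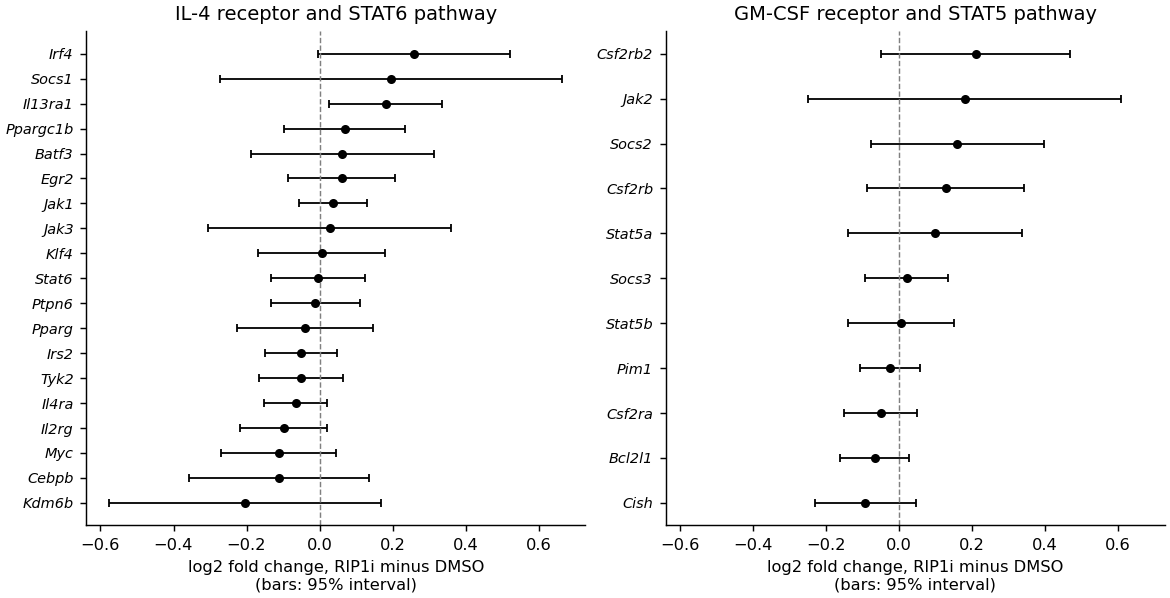
Log2 fold change (RIP1i minus DMSO) with 95% intervals for the tested genes of the IL-4 receptor and STAT6 pathway (left, 19 genes) and the GM-CSF receptor and STAT5 pathway (right, 11 genes). Il13ra1 at 0.18 is the 1 gene whose interval lies off 0, and no gene passed the adjusted test.

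No gene of the GM-CSF receptor and STAT5 pathway was called. Csf2rb, the shared beta chain of the receptor, was at 308 and 336 FPKM and Csf2ra, its alpha chain, at 120 and 115 FPKM, in DMSO and RIP1i. Csf2, which encodes GM-CSF itself, had 0 or 1 counts in each library. Of 12 genes 11 were tested, 0 of them at an unadjusted p under 0.05. Fitted higher were 7 (6 with 2 other scalings), against 51% of all genes tested (48.6% and 46.3%). The median log2 fold change was 0.021. The smallest p belonged to Csf2rb2, which encodes the IL-3 receptor beta chain, at 0.21 (-0.048 to 0.47, edgeR adjusted p = 0.786). Next came Bcl2l1, the Bcl-xL gene, at -0.067 ± 0.041 (SE), the STAT5 target gene Socs2 at 0.16 ± 0.10 and Cish, another STAT5 target gene, at -0.092 ± 0.059. The CPM of Bcl2l1 and of Pim1, a kinase gene (-0.025 ± 0.035), did not overlap between the groups and were lower in RIP1i. Of all genes tested, 13.5% did not overlap between the groups, in either direction. The widest of these intervals was that of Jak2, from -0.25 to 0.61. The receptors of the member chemokines were scarcely present, with Ccr4 at 4 to 26 counts, Ccr3 at 9 to 18, and Ccr8 and Ackr2 at 0.

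Other alternative activation genes, a list that shares no gene with the 9, gave no call either. Of 18 genes 16 were tested, with 11 fitted higher and 5 lower (10 and 6 with upper-quartile scaling) and a median log2 fold change of 0.043. Over all genes tested, 51% were fitted higher (46.3% with upper-quartile scaling). At an unadjusted p under 0.05 there were 2 higher and 1 lower, 3 of 16, against 534 higher and 389 lower of all 14857 genes (6.21%). Clec7a, the beta-glucan receptor dectin-1, was at 606 ± 40.6 and 705 ± 18.0 FPKM (SD, n = 3) in DMSO and RIP1i, and Msr1, the scavenger receptor A gene, at 113 ± 4.38 and 122 ± 3.35 FPKM. Stab1, another scavenger receptor gene, was at 5.33 ± 0.42 and 4.53 ± 0.34 FPKM. Ptgs1, a cyclooxygenase gene, was at 45.8 and 41.99 FPKM. Each had an edgeR adjusted p of 0.777. The genes Folr2 and Lyve1, known from resident tissue macrophages, had at most 4 counts, as low as Arg1 or Ccl24.

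The genes whose levels most resembled those of the chemokines were sought among 8372 others with a mean of at least 10 CPM, by Pearson correlation of log2 CPM over the 6 libraries. For Ccl17 these were Tacc1 (r = 0.996), Atg3 (0.99), Shoc2 (0.99), Fundc2 (0.99) and Pttg1ip (0.99). For Ccl22 they were Tmem173, which encodes the innate sensor adaptor STING (0.999), Pxn (0.99), Naglu (0.99), Manba (0.99) and Vhl (0.99). No gene was on both lists. With 8372 genes searched over 6 libraries, which share culture conditions and similar depth, the names are a description and carry no p.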

How the data were processed

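The 6 libraries (3 DMSO, 3 RIP1i, grouped by title) were made from Trizol RNA with an Illumina TruSeq kit, per the labels' protocols. The submitters' processing notes list mm10, DESeq2 1.14.0, featureCounts, Subread 1.4.6-p3, STAR 2.5.3a and CASAVA 1.8.4. For their roles, the annotation, the strand setting and multi-mapped reads: not given in the sources used here. The authors deposited raw read counts per gene and FPKM values. The deposited FPKM were the counts over a gene factor, with a library factor within 0.000128% of the inverse median-of-ratios size factor (2174 genes), and so hold the same reads.

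Counts were tested with edgeR 4.0.16 (R 4.3.3) after filterByExpr (minimum count 10, minimum total 15), with TMM scaling, treatment as the only term and the quasi-likelihood F test, 2-sided. Benjamini-Hochberg adjustment ran over 14857 genes, threshold 0.05. SE came from the F statistic and 95% intervals from the t distribution of the fit. log2 CPM used a prior count of 2. Genes under the filter were compared by exact permutation of CPM. The code of the fit was also run on simulated counts. Those libraries were drawn independently, without the shared library pattern seen here, so no result rests on that run. Depth makes counting error small for the expressed members. It limits Ccl24, Arg1 and Retnla. Alternatives were other scalings, filters, DESeq2 1.42.0, limma 3.58.1 (voom, and trend on log2(FPKM + 1) or log2(FPKM + 0.1)), the replicate block and leaving out libraries. Gene positions and exons are from GENCODE M21, with exons counted as merged blocks, and promoters from RefSeq, both GRCm38.

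The members, lists and tests were chosen with earlier results of these data known. Named are all 9 members, their receptors and relatives, the 4 genes of each other pathway list and the 1 gene of each marker list with the smallest p, and the 5 searched genes most like Ccl17 and Ccl22. Other named genes (such as Stat6, Csf2rb, Pim1, Jak2, Kdm6b, Arg2, Slc7a2, Il4, Il13 and Il13ra2) are outside that rule and were chosen after their values were seen.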

Additional observations from a re-analysis of the deposited data

How the results depend on the processing

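No member was called under any of 17 alternative fits or at thresholds of 0.01 and 0.1, and 84 of the 102 refitted member values kept their sign. Ccl17, Ccl22 and Il4ra kept their sign in all of them. Over all genes, 2 were called by DESeq2 and 4 by limma-trend on log2(FPKM + 1) with no filter, and 0 otherwise. The cause was not tested. With the replicate block, 0 genes and 0 members were called and Ccl17 had a log2 fold change of 0.30. The main variation did not follow the replicate numbers, as deviations from group means correlated at 0.0058, -0.53 and -0.48 for numbers 1 to 3. With 3 libraries per group, these values cannot exclude a shared culture or animal under the same number. Leaving out 1 library at a time gave -0.22 to 0.060 for Chil3, -0.23 to 0.25 for Mgl2 and -0.092 to 0.10 for Tgm2, and 0 called genes each time. The log2 difference in the Ccl17 to Ccl22 ratio was 0.061, or -0.071 to 0.17 with 1 library left out, and that in Chil3 to Ccl17 kept its sign (-0.50 to -0.24). Mgl2 was at -0.036 without DMSO replicate 3 and RIP1i replicate 2. Tgm2 changed sign with upper-quartile (-0.012) or median-of-ratios scaling (-0.0054), without a filter (-0.0017), at least 1 CPM in 3 libraries (-0.0029), DESeq2 (-0.0055) and limma-trend on FPKM (-0.00012, -0.00011 and -0.00012), all far inside its interval. The cause was not tested. Depth limits Ccl24, Arg1 and Retnla, at 0 to 17 counts in a library.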
